A study of Mus musculus with 17 samples.

Results

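Immediate early genes are transcribed within minutes of a rise in synaptic activity, before any new protein is needed, and their mRNAs decay quickly. Calcium entry and kinase signaling act on factors already bound at their promoters, such as CREB at cyclic AMP response elements and SRF at CArG boxes, and the products are mostly transcription factors, together with synaptic proteins and inhibitors that switch the signal off again. In the cortex their mRNA is widely used as a readout of recent neuronal activity. The 10 genes described here, Fos, Fosb, Junb, Egr1, Egr2, Npas4, Nr4a1, Arc, Ier2 and Dusp1, were taken by symbol from a table of 56953 genes, and all 10 were found and passed the filter on low counts.

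The RNA came from the prefrontal cortex of 8-month-old mice on a B6C3F1/J background, 1 library per labelled sample, with 5 WT, 6 hTau and 6 CgA-KO/hTau libraries. The hTau mice, called PS19 below, carry 1 copy of a human Tau transgene with a mutation linked to frontotemporal dementia, driven by the Prnp promoter, so that the transgene is expressed widely in neurons and in other cells. The CgA-KO/PS19 mice carry the same transgene and lack Chga, the gene for the secretory granule protein chromogranin A, in the whole body from conception, and there was no group with the Chga deletion and no transgene. Mice were killed under isoflurane by exsanguination. By the study's methods each group held males and females, but the labels give no sex, date or batch for any library.

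Chga was at 0 counts in the 6 CgA-KO/PS19 libraries and between 152 and 180 CPM in the other 11. CPM are counts scaled to a common library total with edgeR's TMM factors. Total counts ran from 8838334 in WT replicate 4 to 227651681, and about 3 deposited counts stood for 1 sequenced fragment. The lowest count of any of the 10 genes in any library was 29, for Ier2 in WT replicate 4. Replicates 1 to 3 of each genotype had 49.8 to 76.8 CPM of Ddx3y, a gene of the Y chromosome, and the other 8 libraries had at most 0.0582 CPM. PS19 replicates 4, 5 and 6 were alike to a degree seen in no other trio, with a robust SD of the log2 ratio of 0.0523 to 0.0607 over 3761 well-counted genes, and CgA-KO/PS19 replicates 1 and 3 came next at 0.098, against 0.146 or more in every other pair of libraries of 1 genotype. These pairs differed by 1.61 to 2.37 times the counting noise and every other pair by 3.68 times or more. Whether they are separate animals cannot be told from the counts. They were kept as the labels give them, and the main results are also given with these libraries averaged. Markers of cortical excitatory neurons (8 of 8 genes) and inhibitory neurons (7 of 7) were present in every library. A list of 14 striatal markers summed to 1355 to 4239 CPM in WT, 406 to 448 CPM in PS19 and 367 to 2729 CPM in CgA-KO/PS19.

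The promoters of these genes are shown because the members rose and fell together across libraries, as described below. RefSeq (GRCm38.p6) gave windows for 7 of the 10 genes, and the 250 bases before the start site were searched on both strands for TGACG, the core of the cyclic AMP response element, for the full element TGACGTCA, which holds that core, and for the CArG box, and on the forward strand for TATAAA. All 7 genes held TGACG in at least 1 window, and 17.8% of 32851 windows of this length held it. These figures are in unlike units, genes and windows, and windows 1 and 2 of the 5 for Egr2 held none. The 4 windows printed here run 5′ to 3′ on the coding strand of the gene, with capitals marking the core (TGACG, or on the other strand CGTCA), the TATAAA motif and the CArG box. They are Fos (chr12:85473640-85473889, plus strand), Junb (chr8:84978749-84978998, minus strand), Egr2 (chr10:67537619-67537868, plus strand, the third of 5 annotated starts) and Nr4a1 (chr15:101266596-101266845, plus strand, ahead of an internal start).
Fos: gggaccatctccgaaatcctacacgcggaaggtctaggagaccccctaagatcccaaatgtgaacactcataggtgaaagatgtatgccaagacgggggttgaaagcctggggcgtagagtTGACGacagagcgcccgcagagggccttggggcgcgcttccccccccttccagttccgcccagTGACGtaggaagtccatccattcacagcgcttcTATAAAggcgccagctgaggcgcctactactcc
Junb: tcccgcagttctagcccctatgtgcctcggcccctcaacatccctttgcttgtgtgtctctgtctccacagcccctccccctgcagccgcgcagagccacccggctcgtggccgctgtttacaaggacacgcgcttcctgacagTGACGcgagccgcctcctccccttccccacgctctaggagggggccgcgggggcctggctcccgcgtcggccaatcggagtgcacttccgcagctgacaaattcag
Egr2: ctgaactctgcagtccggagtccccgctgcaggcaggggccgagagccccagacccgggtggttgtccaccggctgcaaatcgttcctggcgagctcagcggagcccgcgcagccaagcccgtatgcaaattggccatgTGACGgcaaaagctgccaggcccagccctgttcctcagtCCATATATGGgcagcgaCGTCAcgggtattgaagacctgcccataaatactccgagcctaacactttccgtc
Nr4a1: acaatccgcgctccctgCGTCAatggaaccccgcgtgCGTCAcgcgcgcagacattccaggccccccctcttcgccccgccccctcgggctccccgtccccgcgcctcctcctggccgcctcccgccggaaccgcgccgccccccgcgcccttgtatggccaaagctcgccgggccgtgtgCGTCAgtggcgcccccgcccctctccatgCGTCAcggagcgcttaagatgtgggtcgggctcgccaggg
The Fos window held TGACG 129 and 66 bases before the start and TATAAA 33 bases before it, a TATA motif found in 7.59% of all windows. Nr4a1 held 4 copies of the core. The Egr2 window held 2 copies of the core and a CArG box 72 bases before the start, and 1.47% of all windows held a CArG box. Dusp1 alone of the 7 held the full TGACGTCA, which occurred in 1.55% of all windows. These are matches of letters in a window and were not measured as binding sites in these mice.

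Among the AP-1 factors, Fos (chr12:85473890-85477273, plus strand), which pairs with Jun proteins to form the AP-1 dimer, was at 25.3, 35.0, 23.5, 19.2 and 22.8 CPM in WT replicates 1 to 5. Its level in PS19 was 12.3 CPM in replicate 2 and 14.2 CPM in replicate 3, and 39.5 to 43.2 CPM in the other 4 libraries. In CgA-KO/PS19 it was 7.69, 27.0 and 7.45 CPM in replicates 1 to 3 and 139, 123 and 102 CPM in replicates 4 to 6. Thus both the lowest and the highest Fos levels of all 17 libraries were in CgA-KO/PS19, 18.7 times apart, and the 3 genotypes overlapped. Fosb (chr7:19302696-19310051, minus strand), a paralog of Fos whose truncated product is long-lived, ranged from 14.4 to 35.6 CPM in WT and from 14.5 to 31.9 CPM in PS19. In CgA-KO/PS19 it was 18.7, 17.4 and 15.2 CPM in replicates 1 to 3, inside the WT and PS19 ranges, and 67.7, 57.3 and 59.0 CPM in replicates 4 to 6, above both. Fosb varied least of the 10 genes, with a range of 4.71 times over the 17 libraries. Junb (chr8:84974484-84978718, minus strand), a Jun family partner in AP-1, was at 21.7 CPM in WT replicate 4 and 62.8 to 81.1 CPM in the other WT libraries, at 31.3 to 84.5 CPM (median 74.8) in PS19, and at 17.2 to 40.7 CPM in CgA-KO/PS19 replicates 1 to 3 against 93.5 to 216 CPM in replicates 4 to 6.

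The EGR zinc-finger factors bind GC-rich sites and are induced by the same signals. Egr1 (chr18:34859823-34864984, plus strand) had the narrowest WT range, 349 to 446 CPM, with a coefficient of variation of 10.8%. In PS19 it was 258 and 294 CPM in replicates 2 and 3 and 522 to 687 CPM in the other 4. In CgA-KO/PS19 it was 264, 589 and 242 CPM in replicates 1 to 3 and 1241, 1559 and 1545 CPM in replicates 4 to 6. Egr2 (chr10:67535475-67542188, plus strand) had the widest range of the 10 genes, 41.0 times between PS19 replicate 2 and CgA-KO/PS19 replicate 4. Its levels were 5.93, 14.4, 11.8, 6.16 and 13.2 CPM in WT, and in PS19 1.91 and 2.10 CPM in replicates 2 and 3 against 13.4 to 16.8 CPM in the rest. CgA-KO/PS19 replicates 1 and 3 had 3.67 and 3.75 CPM of Egr2 and replicate 2 had 12.9 CPM, while replicates 4 to 6 had 78.4, 39.5 and 75.8 CPM.

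Npas4 (chr19:4984355-4990316, minus strand), a bHLH-PAS factor largely restricted to neurons and induced by depolarization, was at 5.93 to 23.4 CPM in WT and 7.91 to 23.3 CPM in PS19. In CgA-KO/PS19 it lay between 6.23 and 9.08 CPM in replicates 1 to 3 and between 31.4 and 45.5 CPM in replicates 4 to 6. Nr4a1 (chr15:101254269-101274795, plus strand), an orphan nuclear receptor, was at 95.9, 123, 93.6, 37.8 and 71.7 CPM in WT, and PS19 ranged from 51.8 to 152 CPM. CgA-KO/PS19 replicates 1 to 3 had 26.6, 73.9 and 27.7 CPM and replicates 4 to 6 had 355, 330 and 247 CPM. Arc (chr15:74669083-74672570, minus strand), which acts at the synapse in the removal of AMPA receptors, was at 104, 183, 118, 51.7 and 95.5 CPM in WT. PS19 replicates 2 and 3 had 63.7 and 94.4 CPM of Arc, replicate 1 had 192 CPM and replicates 4 to 6 had 278 to 283 CPM, all 4 above every WT library. In CgA-KO/PS19 Arc was 35.5, 235 and 35.2 CPM in replicates 1 to 3 and 608, 597 and 380 CPM in replicates 4 to 6, so that replicate 2 lay inside the PS19 range.

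Ier2 (chr8:84661331-84662852, minus strand), a small nuclear protein of the early response, was at 3.31 to 6.71 CPM in WT and 6.97 to 12.2 CPM in PS19. CgA-KO/PS19 had 2.34, 5.18 and 2.36 CPM in replicates 1 to 3, all below PS19, and 22.6, 19.6 and 12.4 CPM in replicates 4 to 6. Dusp1 (chr17:26505590-26562128, minus strand), a phosphatase that inactivates MAP kinases and so ends the signal, was at 26.5 to 43.1 CPM in WT and 23.5 to 44.7 CPM in PS19, and these ranges largely coincided. In CgA-KO/PS19 it was 11.3, 26.9 and 9.88 CPM in replicates 1 to 3 and 90.0, 93.6 and 77.8 CPM in replicates 4 to 6. Divided by merged exon length, the WT means were highest for Egr1, at 87.6 CPM per kb, followed by Arc (36.2), Junb (26.0), Nr4a1 (24.1), Fos (10.7), Dusp1 (10.3), Fosb (3.77), Npas4 (3.39), Ier2 (3.37) and Egr2 (3.03). Neighbors among Arc, Junb and Nr4a1, the pair Fos and Dusp1, and the last 4 genes differed by less than the larger of their SDs between WT libraries.

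**Figure D1:**
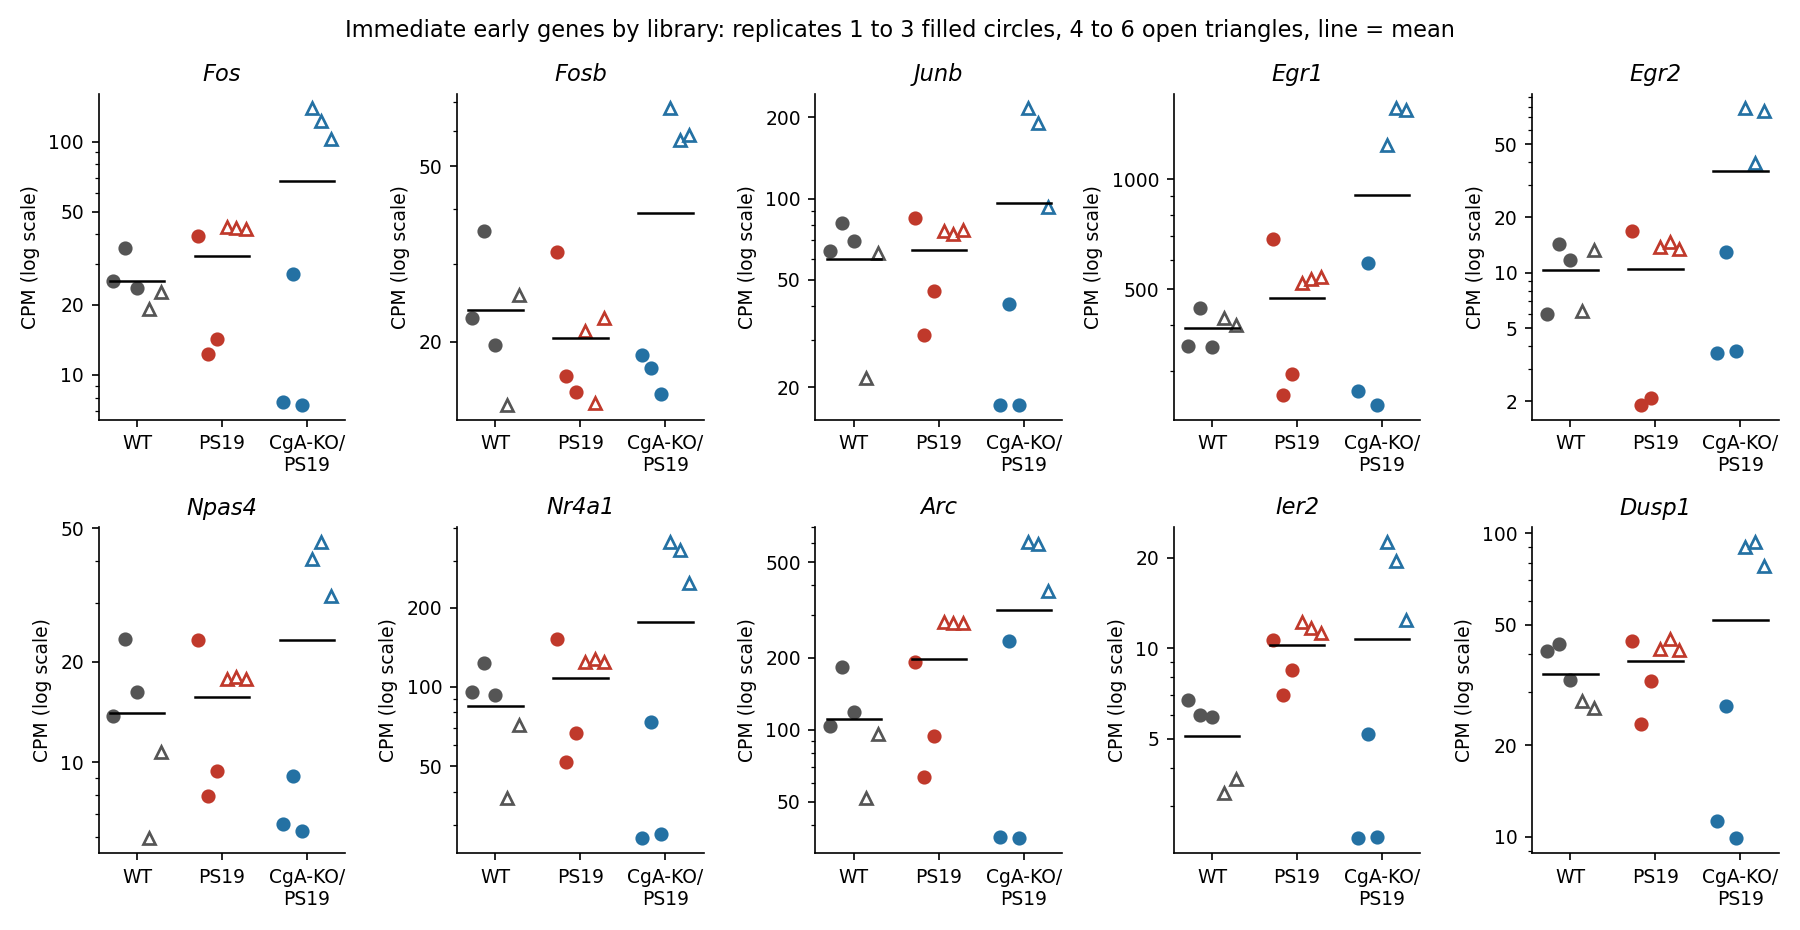
Level of each gene in each library, in CPM on a log axis, for WT (n = 5), PS19 (n = 6) and CgA-KO/PS19 (n = 6). Filled circles are replicates 1 to 3, open triangles are replicates 4 to 6 and lines are means. For all 10 genes the 3 open triangles of CgA-KO/PS19 are the highest of the 17 points.

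WT was compared with PS19 to see what the transgene changed. In the edgeR quasi-likelihood fit to the 17 libraries none of the 10 genes reached an adjusted p of 0.05, which 5.90% of the 23062 genes tested did. None met the cut-offs of the study's methods either, 0.5 on the log2 scale and 0.01 for the unadjusted p, which 7.39% of all genes met. None had an unadjusted p under 0.05 (20.9% of all genes), and DESeq2 (5.99% of its 39993 genes called) and limma voom (17.2%) called none either. The DESeq2 shares here and below are over all genes with any count, without the filter on low counts. They are not directly comparable with the edgeR and limma voom shares, which are over the 23062 genes. Log2 fold changes of WT over PS19 ran from -0.98 for Ier2 to 0.22 for Fosb, with a median of -0.21 against -0.01 over all genes, and 1 of 10 was above 0. Egr2 stood at 0.00 and its sign changed with the scaling of the libraries. The Ier2 means were 5.13 ± 1.53 CPM (SD, n = 5) in WT and 10.2 ± 2.05 CPM (SD, n = 6) in PS19, a log2 fold change of -0.98 ± 0.49 (SE) with an edgeR adjusted p of 0.265. For Arc, with 111 ± 47.7 CPM in WT and 198 ± 98.9 CPM in PS19, the log2 fold change was -0.84 ± 0.63 (SE, adjusted p = 0.481). With the summed striatal list as a covariate all 10 fold changes were above 0 and 7 passed the test (16.6% of all genes), but WT and PS19 did not overlap in that list, so its part in these values and that of genotype cannot be told apart.

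CgA-KO/PS19 was compared with PS19 to see what the loss of Chga changed in mice with the transgene. All 10 genes had higher fitted means in CgA-KO/PS19, and none passed the test. The log2 fold changes ran from 0.07 for Ier2 to 1.77 for Egr2, with a median of 0.69 against 0.03 over all genes, of which 12155 were above 0. No gene passed an adjusted p of 0.05 (9.72% of all genes did) or the cut-offs of the study (9.73%). Unadjusted p-values under 0.05 in edgeR were found for 3 of the 10, against 27.8% of all genes, namely Fosb (log2 fold change 0.94 ± 0.36 SE, adjusted p = 0.101), Egr2 (1.77 ± 0.72 SE, adjusted p = 0.118) and Egr1 (0.94 ± 0.40 SE, adjusted p = 0.136). The Fosb means were 39.2 ± 24.5 CPM in CgA-KO/PS19 and 20.4 ± 6.50 CPM in PS19 (SD, n = 6 each). For Fos they were 67.7 ± 60.3 CPM and 32.4 ± 14.9 CPM, a log2 fold change of 1.06 ± 0.60 (SE, adjusted p = 0.255). The count of 3 fell to 0 without CgA-KO/PS19 replicate 4 or with a block for replicate number. It fell to 1 without replicate 6, in limma voom or with Ddx3y as covariate, and it was 4 without replicate 1 or 3 and with the near-identical libraries averaged. DESeq2 called 1 of the 10, Fosb (9.9% of its genes). In limma voom, which gives less weight to libraries that stand apart, none was called (22.7% of all genes) and 7 of the 10 fold changes turned below 0, between -0.85 for Ier2 and -0.20 for Npas4. Leaving out CgA-KO/PS19 replicate 1 or replicate 3 brought 3 genes past the cut-offs of the study, and none past an adjusted p of 0.05. Of all genes, 1782 of 22854 met those cut-offs without replicate 1 and 1870 of 22010 without replicate 3. With the striatal list as covariate 5 genes passed the test (6.28% of all genes), all with higher fitted means in CgA-KO/PS19.

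CgA-KO/PS19 was also set against WT, using the same CgA-KO/PS19 libraries, so this comparison and the last share samples and are given side by side only. The 10 log2 fold changes were again above 0, from 0.59 for Dusp1 to 1.77 for Egr2, with a median of 1.05 against 0.01 over all genes. None passed an adjusted p of 0.05 (6.46% of all genes) or the cut-offs of the study (7.75%), while 5 had an unadjusted p under 0.05 in edgeR (21.7% of all genes). These were Egr1 (1.21 ± 0.43 SE, adjusted p = 0.101), Arc (1.51 ± 0.64 SE), Egr2 (1.77 ± 0.77 SE), Fos (1.42 ± 0.64 SE) and Ier2 (1.05 ± 0.49 SE, adjusted p = 0.220). The count of 5 fell to 0 with a block for replicate number and in limma voom. It fell to 1 without WT replicate 4, without CgA-KO/PS19 replicate 4 or with Ddx3y as covariate, and to 2 without WT replicate 1 or 5 or CgA-KO/PS19 replicate 5 or 6. It rose to 7 without CgA-KO/PS19 replicate 1 or 3 and with the near-identical libraries averaged. DESeq2 called Egr1 alone (6.41% of its genes), and limma voom called none (10.7% of all genes). Egr1 passed the edgeR test when CgA-KO/PS19 replicate 1 or 3 was left out (1068 of 22854 and 1116 of 22010 genes called). Limma voom turned 4 of the 10 fold changes below 0 (Junb, Npas4, Nr4a1 and Dusp1), and with the striatal list as covariate all 10 were below 0, from -1.40 for Junb to -0.30 for Egr1, and 1 passed the test (21.6% of all genes), Dusp1.

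The spread between libraries was largest in CgA-KO/PS19 for all 10 genes. The SD of log2 CPM between CgA-KO/PS19 libraries ran from 1.02 for Fosb to 2.03 for Egr2, which placed the 10 genes at percentiles 84.9 to 98.0 of all genes tested in that genotype. In PS19 the SD ran from 0.32 (Ier2) to 1.48 (Egr2), and in WT from 0.16 (Egr1) to 0.76 (Junb). The percentiles ran from 64.2 (Ier2) to 98.3 (Egr2) in PS19 and from 12.9 (Egr1) to 69.3 (Junb) in WT. The PS19 values include the near-identical libraries. The medians over all genes were 0.41 in CgA-KO/PS19, 0.22 in PS19 and 0.42 in WT. A two-sided exact permutation test on absolute deviations from the genotype median gave an unadjusted p under 0.05 for 8 of the 10 genes between CgA-KO/PS19 and PS19, all but Egr2 and Arc, against 23.8% of all genes. Adjusted over all genes, 1 passed (7.54% of all genes), Fosb. Its mean absolute deviation was 0.92 in CgA-KO/PS19 and 0.34 in PS19 (exact permutation p = 0.00216, the smallest this design allows, adjusted p = 0.0287). The test runs over every arrangement, but each median is fitted to the same libraries, so all p-values of this test are approximate. Between CgA-KO/PS19 and WT, 9 of 10 had an unadjusted p under 0.05, all but Arc (7.24% of all genes), and none passed after adjustment (0% of all genes). Between WT and PS19 none had an unadjusted p under 0.05 (6.0% of all genes) and none passed after adjustment (0%). That last result depended on the choice of centre. With deviations from the mean in place of the median, some of the genes passed between WT and PS19, before and after adjustment.

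These counts changed when single libraries were left out, which also leaves fewer libraries and fewer arrangements. What the counts rested on was not tested, and shares of all genes are not given for these smaller sets. Against PS19 the 8 genes became 1 without CgA-KO/PS19 replicate 1, 2 or 3 and 2 without replicate 4, 5 or 6, and against WT the 9 became 0 or 3. With the near-identical libraries averaged, which leaves 5 CgA-KO/PS19 and 4 PS19 libraries, no gene had an unadjusted p under 0.05 in either comparison.

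**Figure D2:**
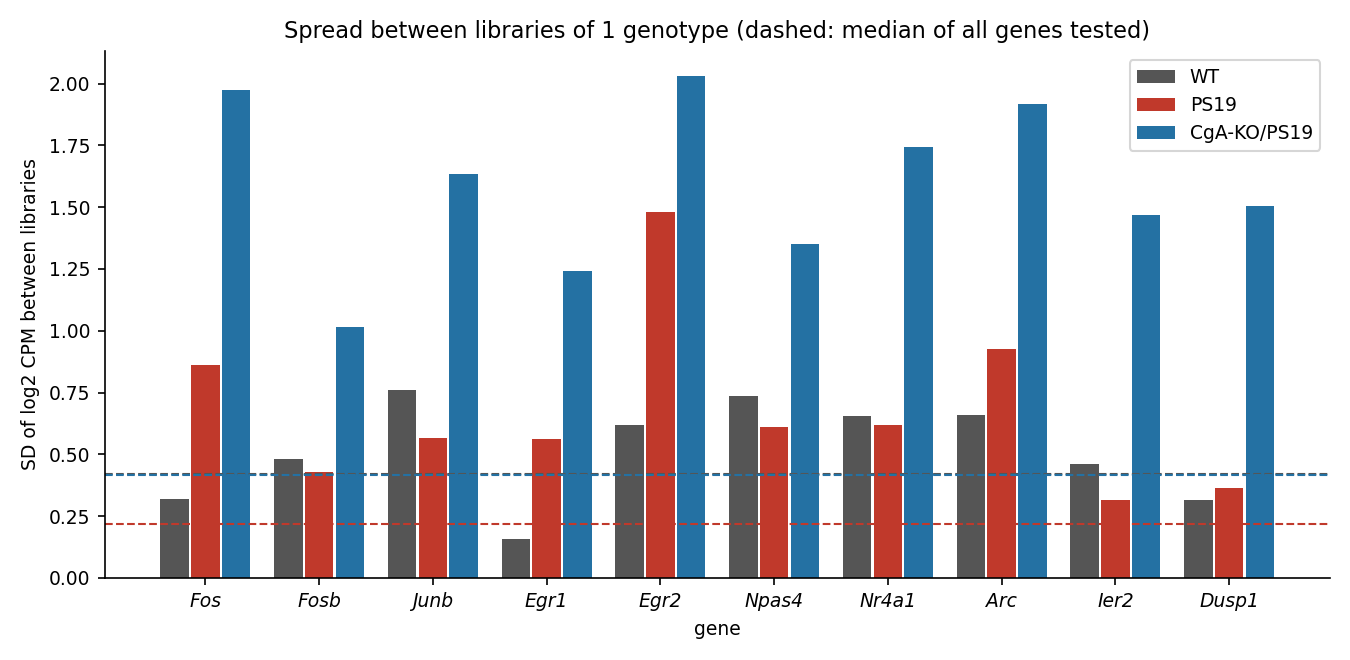
Standard deviation of log2 CPM between the libraries of each genotype, for the 10 genes. Dashed lines are the medians over all 23062 genes tested, which coincide for WT (0.42) and CgA-KO/PS19 (0.41), and the CgA-KO/PS19 bar is the tallest for all 10 genes.

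Within CgA-KO/PS19 the levels divided by replicate number. Replicates 4 to 6 held the 3 highest levels of all 17 libraries for each of the 10 genes, and replicates 1 and 3 were among the 3 lowest for 9 of the 10 each. The share of all genes with such a ranking is not given, so the ranking is not shown to be particular to the 10. Since Ddx3y separated replicates 1 to 3 from the others in all 3 genotypes, 1 mean per genotype and replicate set was fitted to the 17 libraries, a choice made after the data had been seen. Within CgA-KO/PS19 all 10 genes were higher in replicates 4 to 6, where 19.1% of all genes were called in either direction, by log2 differences of 1.84 for Fosb to 3.26 for Egr2 with a median of 2.46. The largest adjusted p of the 10 in edgeR was 0.0175, for Arc. Fos averaged 14.1 CPM in replicates 1 to 3 and 121 CPM in replicates 4 to 6, 8.63 times as much, and Fosb, at the low end, 17.1 and 61.3 CPM, 3.59 times as much. Within PS19 no member was called (0.0520% of all genes), with log2 differences from -0.13 for Fosb to 1.26 for Arc, and within WT none was called either (0.130% of all genes), with log2 differences from -1.05 for Npas4 to 0.10 for Egr1 and 1 of 10 above 0. Averaging the near-identical libraries left 8 of the 10 genes called within CgA-KO/PS19, all but Egr2 (adjusted p = 0.104) and Arc (adjusted p = 0.129), where 4.87% of all genes were called. Sex, to which Ddx3y points, and anything else that followed the replicate numbers cannot be told apart.

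Other measures moved with the same division. CgA-KO/PS19 replicates 1 to 3 had more counts from mitochondrial genes, 13.8% to 18.2%, than replicates 4 to 6, with 3.84% to 10.9%. The share was 2.56% to 4.59% in PS19 and 3.53% to 7.94% in WT, highest there in replicate 4. CgA-KO/PS19 replicates 1 to 3 also differed from replicates 4 to 6 in the marker lists. Their oligodendrocyte list (6 of 6 genes) summed to 2513 to 2943 CPM against 1507 to 1608 CPM, and their astrocyte list (6 of 6 genes) to 1898 to 2248 CPM against 1040 to 1217 CPM. The excitatory list was lower in them, at 2045 to 2538 CPM against 3288 to 3562 CPM, as was the inhibitory list, at 768 to 794 CPM against 1220 to 1278 CPM. The striatal list was at 2669 and 2729 CPM in replicates 1 and 3, at 709 CPM in replicate 2 and at 367 to 401 CPM in replicates 4 to 6. In bulk RNA, fewer neurons and less of these mRNAs per neuron cannot be told apart. The part of these lists and of the mitochondrial share in the result was not tested.

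**Figure D3:**
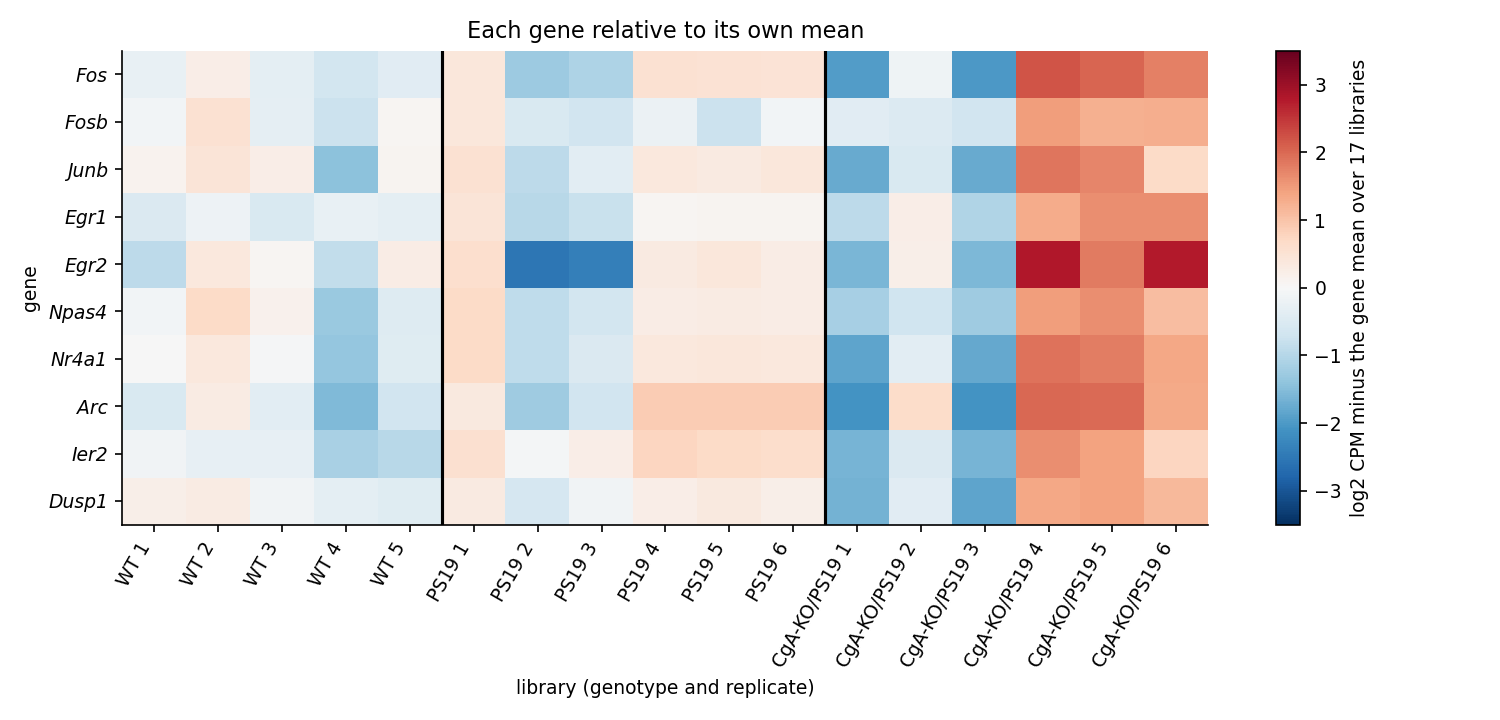
Log2 CPM of each gene in each library minus that gene's mean over the 17 libraries, with red above and blue below the mean and black lines between genotypes. CgA-KO/PS19 replicates 4 to 6 are red for all 10 genes, and CgA-KO/PS19 replicates 1 and 3 and PS19 replicates 2 and 3 are mostly blue.

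Compared within replicate sets, the fold changes of CgA-KO/PS19 over PS19 had opposite signs, and few of the 10 genes were called in either set. In replicates 1 to 3, all 10 genes were lower in CgA-KO/PS19 than in PS19, with a median log2 fold change of -0.77, and 2 were called, Ier2 (-1.41 ± 0.29 SE, adjusted p = 0.00271) and Dusp1 (-1.06 ± 0.30 SE, adjusted p = 0.0198), where 25.0% of all genes were called. In replicates 4 to 6 all 10 were higher, with a median of 1.23, and 1 was called, Fosb (1.66 ± 0.30 SE, adjusted p = 0.0122), where 1.72% of all genes were. The difference between the replicate sets was itself tested in edgeR and passed for 8 of the 10 genes, all but Egr2 (adjusted p = 0.171) and Arc (adjusted p = 0.438), against 11.7% of all genes. Against WT, 5 genes were lower in CgA-KO/PS19 replicates 1 to 3 (16.5% of all genes called), namely Junb, Npas4, Nr4a1, Ier2 and Dusp1, and 9 were higher in replicates 4 to 6 (5.45%), all but Egr2. The difference between the sets passed for 7 (5.47%), all but Egr1, Egr2 and Arc. Between WT and PS19 none was called in replicates 1 to 3 (1.21%), Ier2 alone in replicates 4 to 6 (11.9%, log2 fold change -1.73 ± 0.35 SE, adjusted p = 0.00545), and no difference between the sets (0.0564%). WT had 2 libraries in the second set, 1 of them the shallowest.

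These calls depended on the near-identical libraries. Averaging PS19 replicates 4 to 6 to 1 library and CgA-KO/PS19 replicates 1 and 3 to 1 leaves a single PS19 library in the second set, assumed to vary like the others. The differences between replicate sets then kept their direction for all 10 genes (1.97 became 1.99 for Fosb against PS19) and none passed, where 0.0217% of all genes passed against PS19 and as many against WT, so this fit could show little. Against PS19 in replicates 1 to 3, 7 of the 10 stayed lower, with a median of -0.58, and Egr1 (0.016), Egr2 (0.27) and Arc (0.21) came out above 0. Ier2 was the 1 gene still called there (adjusted p = 0.0426, 10.7% of all genes called), and none was called in replicates 4 to 6 (0.0347%), where all 10 stayed higher. Against WT, 5 genes were called in replicates 4 to 6 (2.18% of all genes) and none in replicates 1 to 3 (5.19%), where 9 of 10 were below 0.

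**Figure D4:**
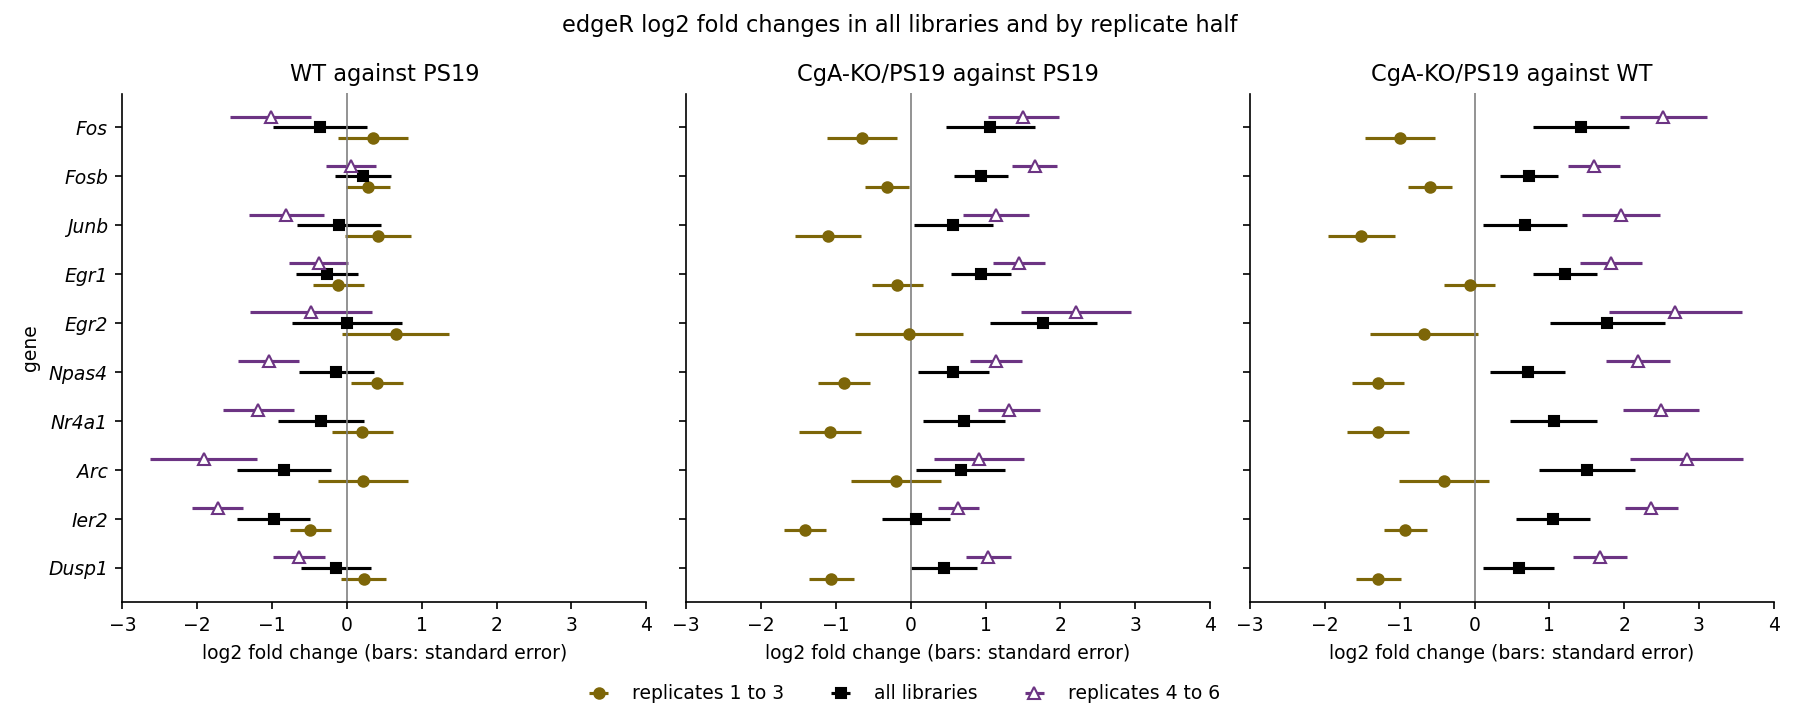
EdgeR log2 fold changes of the 10 genes in the 3 comparisons, with SE as bars, from all libraries (black squares), from replicates 1 to 3 (circles) and from replicates 4 to 6 (open triangles). For CgA-KO/PS19 against PS19 all 10 circles lie below 0 and all 10 triangles above 0, with the squares between them.

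The 10 genes moved together from library to library. Each gene's deviations of log2 CPM from its genotype means were set against the mean deviation of the other 9 over the 17 libraries, and Pearson's r ran from 0.872 for Fosb to 0.992 for Nr4a1. Over the 11 WT and PS19 libraries alone r ran from 0.639 for Fosb to 0.960 for Nr4a1, so the pattern was also present where CgA-KO/PS19 did not enter. The points share libraries, and the near-identical libraries count more than once. Of the genes outside the 10, those most like their mean over the 17 libraries were Midn, a nuclear protein that carries substrates to the proteasome (r = 0.989), Dusp6 (r = 0.977) and Dusp5 (r = 0.962), phosphatases of ERK, Sik1 (r = 0.967), a kinase that restrains CREB coactivators, Gpr3 (r = 0.964), a receptor that raises cyclic AMP, and Per1 (r = 0.961), a clock gene that also responds to CREB. Midn was the only one of the 6 not on the hand-written list of activity genes described next. It ranged from 45.6 to 160 CPM within CgA-KO/PS19, against 55.3 to 84.7 CPM in WT and 62.8 to 97.4 CPM in PS19, and its r over the WT and PS19 libraries was 0.976. Of the 50 genes with the highest r, 20 were on that list, which holds 0.455% of the genes tested. The list was written with earlier results of these data known, so this overlap is not an independent check.

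The rest of the activity pathway was followed with that list of 109 further genes, of which 105 were tested. Between WT and PS19, 9 were called (8.57%), 7 of them with more mRNA in WT. Between CgA-KO/PS19 and PS19, 10 were called (9.52%), 5 in each direction, and between CgA-KO/PS19 and WT 8 were called (7.62%), 2 of them with more mRNA in CgA-KO/PS19. These shares lie near the 5.90%, 9.72% and 6.46% of all genes called. The medians of the whole list were -0.03, 0.04 and 0.07, each within 0.07 of the median over all genes. The list mixes roles. Between CgA-KO/PS19 and PS19 the medians were 0.47 for AP-1 and ATF factors and 0.26 for EGR, NR4A and other factors. They were 0.10 for feedback inhibitors, 0.06 for synaptic and secreted effectors and -0.03 for upstream factors. Between CgA-KO/PS19 and WT they were 0.46, 0.58, 0.21, -0.01 and -0.10 in the same order. Between WT and PS19 they were -0.01, -0.32, -0.24, -0.01 and 0.09. Among the AP-1 and ATF factors (7 tested) Jun was higher in WT, at 74.9 ± 21.4 CPM, than in PS19, at 47.1 ± 4.60 CPM (log2 fold change 0.67, adjusted p = 0.0270), and lower in CgA-KO/PS19 than in WT (-0.61, adjusted p = 0.0397). Atf3, a stress-induced factor, rose in CgA-KO/PS19 over PS19 (2.06, adjusted p = 0.00860) and over WT (2.06, adjusted p = 0.0151). Maff, a small Maf factor, rose over PS19 (1.05, adjusted p = 0.0338) and WT (1.33, adjusted p = 0.0219), and both genes were at 3.13 CPM or less in every library. Of the 15 EGR, NR4A and other factors Nr4a2 was called, an orphan nuclear receptor that also marks deep-layer and claustral neurons. It was at 9.22 to 48.7 CPM in PS19, 48.0 to 81.2 CPM in WT and 89.1 to 178 CPM in CgA-KO/PS19. The log2 fold change of CgA-KO/PS19 over PS19 was 2.90 ± 0.37 (SE, edgeR adjusted p = 0.000291). WT was above PS19 in Nr4a2 as well (1.86 ± 0.37 SE, adjusted p = 0.00574). Its deviations followed those of the 10 genes weakly (r = 0.39, 17 libraries), whereas Ccn1, a secreted matrix protein called with more mRNA in CgA-KO/PS19 (13.4 ± 10.3 CPM) than PS19 (4.55 ± 1.51 CPM, log2 fold change 1.56, adjusted p = 0.0479), followed them closely (r = 0.94).

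Of the 18 feedback inhibitors Rgs2, which limits G protein signaling, was called, at 77.9 ± 17.5 CPM in WT and 54.1 ± 4.46 CPM in PS19 (0.53, adjusted p = 0.0173). Among the 34 synaptic and secreted effectors, Pmepa1, an inhibitor of TGF-beta signaling, was lower in CgA-KO/PS19 than in PS19 (-0.46, adjusted p = 0.00611) and WT (-0.35, adjusted p = 0.0297), as was the proteoglycan of perineuronal nets Acan (-0.79, adjusted p = 0.0311, and -0.81, adjusted p = 0.0417), and Inhba, the activin A subunit, was lower than in WT (-0.66, adjusted p = 0.0337). Of the 31 upstream signal and promoter factors 6 were called between WT and PS19. The kinase Rps6ka5 was higher in WT than in PS19 (0.82, adjusted p = 0.00648) and in CgA-KO/PS19 (log2 fold change of CgA-KO/PS19 over WT -0.61, adjusted p = 0.0344). Camkk2, a calmodulin-dependent kinase kinase, was at 414 ± 48.3 CPM in PS19 against 282 ± 40.8 CPM in WT (-0.56, adjusted p = 0.0133), and it averaged 284 ± 45.1 CPM with Chga deleted (-0.54, adjusted p = 0.0116). Rps6ka1, a ribosomal S6 kinase, was also highest in PS19 (WT -0.50, adjusted p = 0.0307, and CgA-KO/PS19 -0.42, adjusted p = 0.0406), and Mrtfa, an SRF cofactor, was lower in CgA-KO/PS19 than in WT (-0.49, adjusted p = 0.0376). Other calls included Mef2a (0.45) and Mapk3 (0.61), with more mRNA in WT than PS19, and Mapk3 (0.62) and Camkk1 (-0.71) in CgA-KO/PS19 against PS19. With the near-identical libraries averaged, the calls over this list fell from 9 to 1, from 10 to 2 and from 8 to 2 in the 3 comparisons. Of all genes 1.92%, 0.697% and 2.58% were called in those fits.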

How the data were processed

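Prefrontal cortex RNA of mice was measured in 17 libraries by mRNA sequencing. The authors trimmed reads with Trimmomatic 0.39, aligned them to mm10 with STAR 2.7.10b and quantified genes with StringTie 1.3.6, and the deposited values are whole-number counts per gene from prepDE, without normalization. The annotation release and the strand setting are not given in the sources used here. No sample column was left unused (0).

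The deposited counts were fitted in R 4.3.3 with edgeR 4.0.16 (TMM, filterByExpr by genotype, quasi-likelihood fit of 1 mean per genotype to 17 libraries, Benjamini-Hochberg over 23062 genes). Samples were grouped by genotype as labelled, and nothing says that replicates came from separate litters or days. Log2 CPM used a prior count of 2. Spread was tested by exact permutation of absolute deviations, two-sided, for all genes. Coordinates and exon lengths are those of GENCODE M21 (GRCm38), which held 52029 of the table's identifiers. Without a stated strand setting, overlapping and antisense genes are uncertain.

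The members and all gene lists were chosen with earlier results of these data known. All members are named, as are list genes called in any comparison, up to 12 by smallest p with further calls added after their values were seen and 1 not reported here, and the 6 genes most like the members in pattern. On simulated counts for CgA-KO/PS19 against PS19 with 200 genes changed by a log2 fold of 2, edgeR found 196 and called 4 unchanged genes of 22587 tested. The corresponding numbers were 199 and 34 of 23062 for DESeq2, and 193 and 2 of 22587 for limma voom. The simulated libraries were independent, with the same spread per gene in every genotype. They held no split between replicate sets and no near-identical libraries, so they do not show how the tests perform for the 10 genes. Alternatives were DESeq2 1.42.0, its size factors in edgeR, no filter, at least 10 counts in every library, 2 genotypes per fit, a robust fit, limma 3.58.1 voom with weights per library, 1 surrogate variable (sva 3.50.0), a block for replicate number, Ddx3y or the striatal list as covariate, averaged near-identical libraries, and each library left out. The fits by replicate set were added after the data had been seen. Same-numbered libraries did not deviate together in every pair (r from -0.157 to 0.420), so numbers were not taken as pairs.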

Additional observations from a re-analysis of the deposited data

Results flagged for a closer look

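Junb in WT replicate 4, at 21.7 CPM with 190 counts, lay far from the other 4 WT libraries. It was the only case among 30 groups of 1 gene and 1 genotype, where chance gives about 1 in 20, and the library is the shallowest of the series.

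The difference between CgA-KO/PS19 and PS19 changed from replicates 1 to 3 to replicates 4 to 6, tested as a difference of log2 fold changes in edgeR with adjustment over all genes, by 2.15 for Fos, 1.97 for Fosb, 2.25 for Junb, 1.62 for Egr1, 2.03 for Npas4, 2.39 for Nr4a1, 2.05 for Ier2 and 2.10 for Dusp1. Against WT the same difference was 3.52 for Fos, 2.20 for Fosb, 3.47 for Junb, 3.48 for Npas4, 3.78 for Nr4a1, 3.29 for Ier2 and 2.96 for Dusp1. With the near-identical libraries averaged, a fit that leaves 1 PS19 library in the second set and calls 5 of all genes in each comparison, none of these 15 differences passed, and they ran from 1.43 to 3.54 with the smallest adjusted p at 0.0563.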

How the results depend on the processing

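The 10 genes and 29 alternatives gave 290 fold changes per comparison (WT against PS19, CgA-KO/PS19 against PS19, CgA-KO/PS19 against WT). Of these, 249, 272 and 273 kept their direction and their side of an adjusted p of 0.05. Another 2, 6 and 3 kept their direction and came to pass it, and 39, 12 and 14 changed sign. Some that changed sign also passed, all with the striatal list as covariate. These were Fos, Junb, Egr1, Npas4, Nr4a1 and Dusp1 in WT against PS19, and Dusp1 in CgA-KO/PS19 against WT. The values below follow that order of comparisons where 3 are given.

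The number of the 10 genes called in WT against PS19 was 0 and became 1 with only these genotypes in the fit, 7 with the striatal list as covariate and 1 in replicates 4 to 6, also by the cut-offs of the study. Of all genes these fits called 2275 of 21762, 3834 of 23062 and 2748 of 23062. By the cut-offs of the study the numbers of all genes were 1884, 3600 and 2885. In CgA-KO/PS19 against PS19 the 0 became 1 in DESeq2, 5 with the striatal list, 2 in replicates 1 to 3 and 1 in replicates 4 to 6, and by the cut-offs of the study 1, 6, 2 and 7. Of all genes these fits called 3958 of 39993 in DESeq2, and 1449, 5770 and 396 of 23062 in the others. By the cut-offs of the study the numbers of all genes were 3009, 1972, 4358 and 1167. In CgA-KO/PS19 against WT the 0 became 1 in DESeq2, 1 with the striatal list, 5 in replicates 1 to 3 and 9 in replicates 4 to 6, and by the cut-offs of the study 1, 1, 5 and 10. Of all genes these fits called 2564 of 39993 in DESeq2, and 4972, 3801 and 1257 of 23062 in the others. By the cut-offs of the study the numbers of all genes were 2355, 3590, 2956 and 1819. Those cut-offs also gave 1 member without the filter (2066 of 39993 genes) and 1 with at least 10 counts in every library (1244 of 14521). They gave 1 with a surrogate variable (2178 of 23062) and 2 with averaged libraries (1409 of 22395). Leaving out single libraries gave 0 to 1 called in CgA-KO/PS19 against WT, where 627 to 2099 of all genes were called. By the cut-offs of the study it gave 0 to 3 in both CgA-KO/PS19 comparisons. Of all genes 1698 to 2920 met those cut-offs against PS19 and 1315 to 2073 against WT.

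The activity list calls of 9, 10 and 8 became 4, 6 and 4 without the filter, 19, 17 and 13 in limma voom, and 1, 2 and 2 with averaged libraries. Calls over all genes moved as well. They were 1054, 1566 and 1017 of 39993 without the filter and 17.2%, 22.7% and 10.7% in limma voom. With averaged libraries they were 1.92%, 0.697% and 2.58%. In the first and last comparison the list calls became 17 and 1 with only the genotypes compared in the fit (2275 of 21762 and 266 of 20459 genes called). They became 34 and 27 there with the striatal list (16.6% and 21.6% of all genes), and 30 and 28 in replicates 4 to 6 (11.9% and 5.45%). In replicates 1 to 3 they were 0, 39 and 34 (1.21%, 25.0% and 16.5% of all genes). DESeq2 gave 16 for CgA-KO/PS19 against WT (6.41%). Single libraries left out gave 2 to 11, 4 to 13 and 1 to 11 list calls, where 632 to 1658, 1019 to 3822 and 627 to 2099 of all genes were called.

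With the replicate number as a block the activity list calls were 3, 5 and 1 and no member was called, where 660, 654 and 614 of 23062 genes were called. The same-numbered libraries share only a number, and their deviations correlated between -0.157 and 0.420. The block turned the WT against PS19 fold changes of Fos to 0.14, Junb 0.17, Egr2 0.79, Npas4 0.15 and Dusp1 0.059, and that of Ier2 in CgA-KO/PS19 against PS19 to -0.19.

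For unequal spread, deviations from the mean in place of the median gave 2 calls after adjustment and 3 before it in WT against PS19 and 4 after it in CgA-KO/PS19 against PS19. Averaged libraries gave 3 before adjustment in WT against PS19, 0 before and 0 after in CgA-KO/PS19 against PS19, and 0 before in CgA-KO/PS19 against WT. Single libraries left out gave 1 to 8 before and 0 to 1 after adjustment in CgA-KO/PS19 against PS19, and 0 to 9 before it in CgA-KO/PS19 against WT. Shares of all genes are not given for these alternatives, so these counts cannot be set against them.

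In WT against PS19 the other sign changes came with Ddx3y as covariate, Fos 0.0032, Junb 0.12, Egr2 0.36, Npas4 0.060 and Dusp1 0.018, and with the striatal list, Fos 2.86, Junb 2.40, Egr1 1.69, Egr2 3.23, Npas4 1.90, Nr4a1 2.41, Arc 2.24, Ier2 1.38 and Dusp1 2.28. Limma voom gave Junb 0.011 and Egr2 0.27, averaged libraries Junb 0.024 and Egr2 0.27, and Egr2 stood at 0.0072 with DESeq2 size factors, 0.014 with at least 10 counts and 0.010 with only the genotypes compared. Single libraries left out gave Egr2 -0.22 to 0.18, Junb -0.24 to 0.10 and Npas4 -0.40 to 0.036. In CgA-KO/PS19 against PS19 limma voom gave Fos -0.22, Junb -0.41, Npas4 -0.20, Nr4a1 -0.33, Arc -0.41, Ier2 -0.85 and Dusp1 -0.43, the Ddx3y covariate Ier2 -0.19, and single libraries left out Ier2 -0.29 to 0.29. In CgA-KO/PS19 against WT limma voom gave Junb -0.42, Npas4 -0.20, Nr4a1 -0.089 and Dusp1 -0.29, and the striatal list Fos -1.28, Fosb -0.32, Junb -1.40, Egr1 -0.30, Egr2 -1.02, Npas4 -0.90, Nr4a1 -1.23, Arc -1.03, Ier2 -0.82 and Dusp1 -1.34. The cause of these changes was not tested.

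Depth is lowest in WT replicate 4, with 8838334 counts, 1 of the 2 WT libraries in the second replicate set. Without the other, WT replicate 5, the activity list calls in WT against PS19 fell from 9 to 2, where 632 of 22681 genes were called.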
